A study of Homo sapiens with 15 samples.

Results

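The Notch pathway genes examined here were *NOTCH1*, *NOTCH2*, *NOTCH3*, *JAG1*, *JAG2*, *DLL1*, *HES1*, *LFNG*, *MAML2* and *NUMBL*, measured in drug-treated HCT116 cells. They were taken by symbol from the deposited counts, and all 10 were found among the 730 endogenous genes of the panel. HCT116 is an established human colorectal carcinoma line, so every sample came from a single line in culture. The cells were exposed for 24 h to 40 µM thymoquinone (TQ), a plant-derived quinone, to 15 µM 5-fluorouracil (5-FU), a pyrimidine drug used against colorectal cancer, to both agents together at 35 µM each (Combi), or to 35 µM SARB, a hybrid molecule in which TQ and 5-FU are joined through an ester. Control cells were left untreated, and each of the 5 groups had 3 replicates. Only SARB and Combi share a nominal dose of 35 µM, so they were compared directly, while the TQ and 5-FU values stand beside them at other doses.

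Notch signaling passes between neighbouring cells. A ligand of the Jagged or Delta type on one cell binds a Notch receptor on the next, proteases release the intracellular part of the receptor, and this part joins the DNA-binding protein RBPJ and a Mastermind coactivator on target genes such as *HES1*. In the intestinal crypt the pathway is known for keeping progenitor cells undifferentiated and for restraining the secretory lineages, with HES1 acting as a transcriptional repressor.

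RNA was measured with the NanoString nCounter PanCancer Pathways Panel, in which each transcript is captured by a color-barcoded probe pair and the barcodes are counted without amplification. Total endogenous counts were between 135017 and 607782 per sample. The counts were scaled to an equal geometric mean of the 40 housekeeping genes, giving the scaled counts used below. A gene was called higher or lower when its fold change reached 1.5 and its Benjamini-Hochberg adjusted p over the 730 genes, from edgeR's quasi-likelihood test, was at most 0.05. On this scale the panel as a whole was shifted against control: the median over its 730 genes stood at a log2 value of -0.47 under TQ, -0.27 under 5-FU, -0.10 under Combi and -0.41 under SARB. TMM normalization, which centers that bulk, brought these medians to between -0.07 and -0.02. Of the 3 cartridges, A held control replicate 1 and every TQ, 5-FU and SARB sample, B held control replicates 2 and 3 and Combi replicate 1, and C held Combi replicates 2 and 3. Of 8 epithelial markers on the panel, 7 were above the background of the negative probes in all 15 samples, and the summed scaled counts of the 8 were between 3450.01 and 8311. In bulk RNA of this kind, fewer cells of a type and less RNA per cell cannot be told apart.

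The upstream sequences of 4 members are shown because these were the members called different between SARB and Combi. The sequences are RefSeq windows of the 250 bases before the annotated gene start on GRCh38.p14, which 9 of the 10 members matched by symbol. *NOTCH3* lies on chr19:15200996-15201245 (minus strand), *HES1* on chr3:194135898-194136147 (plus strand), *NOTCH2* on chr1:120069663-120069912 (minus strand) and *JAG1* on chr20:10674000-10674249 (minus strand). Each is written 5′ to 3′ on the strand of the gene, and capitals mark TGGGAA, the core motif bound by RBPJ, searched on both strands.
NOTCH3: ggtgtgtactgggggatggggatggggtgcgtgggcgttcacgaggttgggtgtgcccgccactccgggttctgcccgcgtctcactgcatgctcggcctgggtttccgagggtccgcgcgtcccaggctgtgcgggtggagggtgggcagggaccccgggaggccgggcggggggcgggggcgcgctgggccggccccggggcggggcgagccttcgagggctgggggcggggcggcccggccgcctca
HES1: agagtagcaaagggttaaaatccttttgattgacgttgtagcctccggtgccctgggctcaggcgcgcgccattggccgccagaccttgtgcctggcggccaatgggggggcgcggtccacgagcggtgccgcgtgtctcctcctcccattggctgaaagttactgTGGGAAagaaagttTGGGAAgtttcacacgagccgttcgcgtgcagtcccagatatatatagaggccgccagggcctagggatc
NOTCH2: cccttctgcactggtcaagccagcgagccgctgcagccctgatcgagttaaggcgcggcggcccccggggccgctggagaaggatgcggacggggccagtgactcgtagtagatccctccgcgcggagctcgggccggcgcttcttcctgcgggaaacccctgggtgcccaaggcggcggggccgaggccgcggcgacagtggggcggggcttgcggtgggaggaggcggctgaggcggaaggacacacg
JAG1: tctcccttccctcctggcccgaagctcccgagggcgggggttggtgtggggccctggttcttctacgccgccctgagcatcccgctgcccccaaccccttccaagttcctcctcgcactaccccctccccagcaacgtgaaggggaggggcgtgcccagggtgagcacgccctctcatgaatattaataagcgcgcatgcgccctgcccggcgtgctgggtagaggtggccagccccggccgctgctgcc

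*HES1*, the textbook target of the receptor complex, held TGGGAA at 2 places, beginning 84 and 70 bases before the gene start. The windows of *NOTCH3*, *NOTCH2* and *JAG1* held none, and 20.8% of 35116 promoter windows of this length held at least 1. Among the members not shown, a window of *LFNG* held 1 match, beginning 248 bases before its start. Another window of *LFNG* and those of *NOTCH1*, *JAG2*, *MAML2* and *NUMBL* held none. TGANTCA, the AP-1 motif, was in none of the windows of the 9 members and in 6.57% of all windows. A match in letters is a description and not a bound site.

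The receptors responded in 3 different ways. *NOTCH1*, the receptor best known from T cell leukemia and from crypt progenitors, was higher in 5-FU, Combi and SARB. Its scaled counts in replicates 1 to 3 were 129.7, 77.1 and 104 in control, 157, 138 and 136 in TQ, 371, 337 and 339 in 5-FU, 203, 189 and 199 in Combi, and 286, 287 and 174 in SARB. All treated samples were above all control samples, the 5-FU samples were above those of every other group, and SARB replicate 3 stood below the other two SARB samples and below all Combi samples. The log2 fold change of *NOTCH1* against control was 1.76 in 5-FU (standard error 0.19, adjusted p = 4.71e-07, edgeR), a 3.38-fold rise, and 1.25 in SARB (standard error 0.19, adjusted p = 3.69e-05, edgeR). In Combi it was 0.93 (standard error 0.19, adjusted p = 0.000737, edgeR). *NOTCH1* in TQ, at 0.47, was not called (adjusted p = 0.0802, edgeR), but it was called after TMM normalization (0.93), in DESeq2 (0.97) and without control replicate 1 (0.66). A fit with cartridge as a block has only control replicate 1 to compare with TQ, 5-FU and SARB, and only Combi replicate 1 to compare with control replicates 2 and 3. In that fit *NOTCH1* was called in 5-FU (1.43), Combi (1.17) and SARB (0.91).

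*NOTCH3* moved in opposite directions under TQ and Combi. In replicates 1 to 3 it had 83.0, 69.5 and 116 scaled counts in control, 29.4, 29.6 and 32.4 in TQ, 114, 112 and 132 in 5-FU, 211, 263 and 288 in Combi, and 119, 101 and 90.1 in SARB. The TQ samples lay below all other samples and the Combi samples above all others, while 5-FU and SARB overlapped with control. The log2 fold change of *NOTCH3* was -1.55 in TQ (standard error 0.23, adjusted p = 5.22e-05, edgeR) and 1.52 in Combi (standard error 0.18, adjusted p = 1.10e-06, edgeR), that is, 2.93-fold lower and 2.86-fold higher. Both calls held after TMM normalization (-1.05 and 1.62), with cartridge as a block (-1.45 and 1.20) and without any single replicate of the groups compared. In 5-FU *NOTCH3* stood at 0.42 (adjusted p = 0.118, edgeR) and was called only after TMM normalization (0.62), in DESeq2 (0.63) and without control replicate 3 (0.65). In SARB it stood at 0.20 (95% interval -0.20 to 0.60).

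*NOTCH2* was higher in Combi alone among the 4 treatments. It had 322, 324 and 371 scaled counts in control, 507, 656 and 608 in Combi, and 343 to 412 over the 9 samples of TQ, 5-FU and SARB. All Combi samples exceeded every other sample, and Combi replicate 1, which shared a cartridge with control replicates 2 and 3, was the lowest of them. The log2 fold change of *NOTCH2* in Combi was 0.80 (standard error 0.13, adjusted p = 3.54e-05, edgeR). With cartridge as a block it was 0.55 and fell short of the fold threshold (adjusted p = 0.0229, edgeR). In TQ, 5-FU and SARB *NOTCH2* stood at 0.10, 0.15 and 0.13, with 95% intervals that together ran from -0.17 to 0.42. DESeq2 called *NOTCH2* higher in TQ (0.61). The genome holds partial copies of *NOTCH2*, the NOTCH2NL genes, and the probe's position is not given in the sources used here, so part of its counts may come from them.

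**Figure D1:**
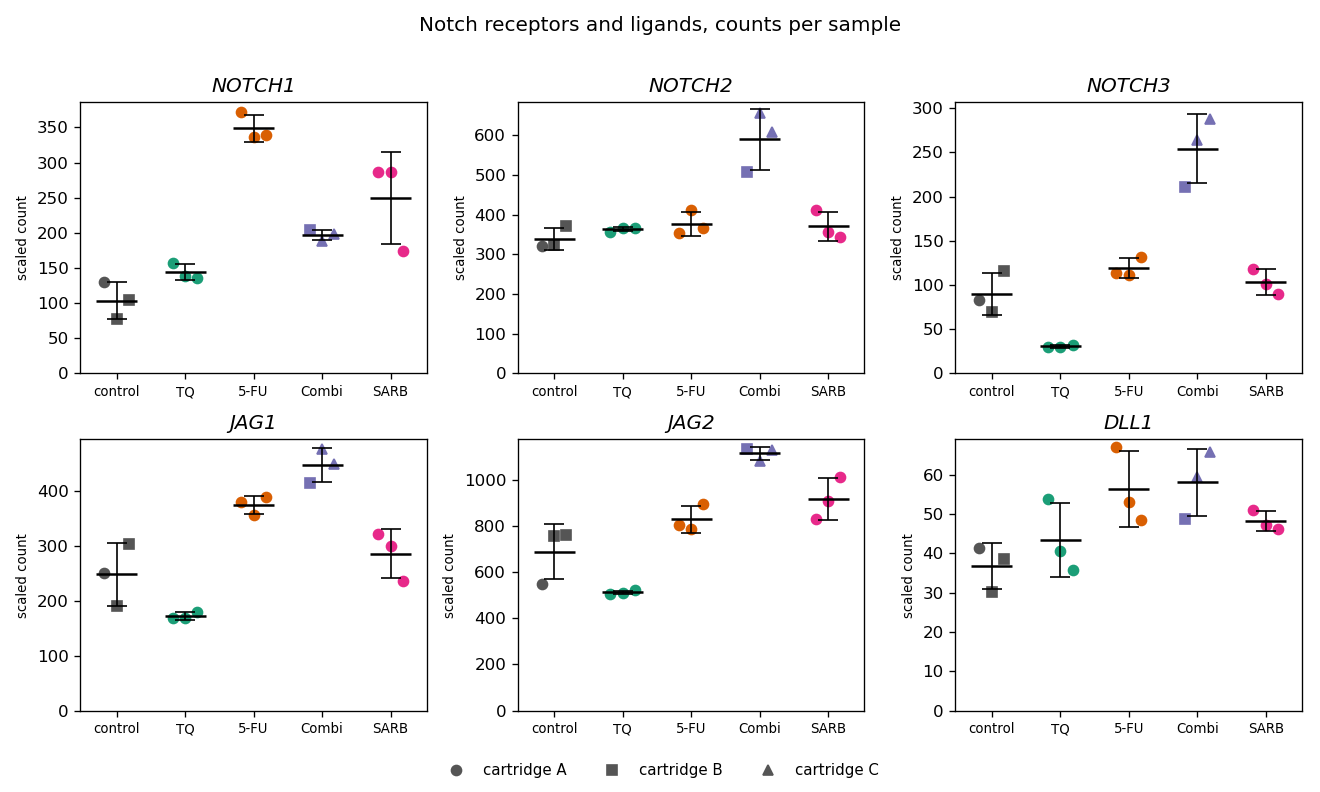
Scaled counts of the 3 receptors and 3 ligands (vertical axes, starting at 0) in the 5 groups, with 1 point per sample, the marker shape giving the cartridge, and bars giving mean ± SD (n = 3). The TQ samples of *NOTCH3* lie between 29.4 and 32.4, below all others, while Combi is the highest group for every gene shown but *NOTCH1*, where 5-FU is.

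Among the ligands, *JAG1* and *JAG2* were at their highest in Combi and at their lowest in TQ. *JAG1*, a Jagged-type ligand that is also known as a WNT target in colorectal cancer, had 251, 190.5 and 304 scaled counts in control, 169, 168 and 181 in TQ, 380, 357 and 389 in 5-FU, 415, 477 and 450.4 in Combi, and 322, 301 and 236 in SARB. The 5-FU and Combi samples were above all controls, the TQ samples were below all controls, and SARB overlapped with control. The log2 fold change of *JAG1* was 0.85 in Combi (standard error 0.15, adjusted p = 0.000137, edgeR) and 0.60 in 5-FU (standard error 0.15, adjusted p = 0.0053, edgeR). The call in 5-FU was lost without control replicate 2 (0.43), without 5-FU replicate 3 (0.57) and with cartridge as a block (0.58), whereas the call of *JAG1* in Combi held in all of these fits that concern it. *JAG1* in TQ, at -0.52 (adjusted p = 0.0194, edgeR), did not reach a fold change of 1.5 and did so without control replicate 2 (-0.69). After TMM normalization *JAG1* in TQ stood at -0.05.

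*JAG2*, the second Jagged ligand, had 550, 754 and 761 scaled counts in control. All samples of Combi (1082 to 1132), SARB (829 to 1011) and 5-FU (785 to 894) exceeded these control values. The log2 fold change of *JAG2* was 0.69 in Combi (standard error 0.12, adjusted p = 0.000143, edgeR), a call lost without control replicate 1 (0.56) and with cartridge as a block (0.58), where the fold fell below 1.5. In SARB *JAG2* stood at 0.41 (adjusted p = 0.0123, edgeR), below the fold threshold, and it was called there after TMM normalization (0.78), in DESeq2 (0.80) and with cartridge as a block (0.74). In 5-FU *JAG2* stood at 0.26 and was called with that block (0.59). In TQ it had 507 to 520 scaled counts, below all controls, at -0.43 (adjusted p = 0.0148, edgeR), and this value turned to 0.04 after TMM normalization.

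*DLL1*, a Delta-type ligand, was a low-count gene with 20 to 24 raw counts in the control samples, of which 1 exceeded the negative-probe background. It had 30.2 to 41.5 scaled counts in control, 48.9 to 65.9 in Combi, 48.6 to 67.2 in 5-FU, 46.3 to 51.1 in SARB and 35.8 to 53.9 in TQ. All samples of Combi, 5-FU and SARB were above the controls. Only the Combi value was called (0.67, standard error 0.25, adjusted p = 0.0475, edgeR), and that call was lost in DESeq2 (0.71), with counts under 20 set to 20 (0.67), with cartridge as a block (0.51) and without control replicate 2 (0.55), control replicate 3 (0.71), Combi replicate 2 (0.66) or Combi replicate 3 (0.57). *DLL1* in 5-FU stood at 0.62 (adjusted p = 0.0803, edgeR) and was called after TMM normalization (0.82), in DESeq2 (0.84) and in limma (1.04). In SARB *DLL1* stood at 0.39 and was called after TMM normalization (0.76).

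*HES1*, the target gene among the members, was called lower in SARB. It had 123, 127 and 176 scaled counts in control, 95.5, 98.7 and 124 in TQ, 85.5, 85.1 and 108 in 5-FU, 160.2, 188 and 184 in Combi, and 84.8, 119 and 39.4 in SARB. The 5-FU and SARB samples lay below all controls, Combi and TQ overlapped with control, and SARB replicate 3 had the lowest value of all samples. In SARB the log2 fold change of *HES1* was -0.90 (standard error 0.27, adjusted p = 0.0127, edgeR), 1.86-fold lower. That call was lost without SARB replicate 3 (-0.50) or control replicate 3 (-0.72), after TMM normalization (-0.57), in DESeq2 (-0.56) and with cartridge as a block (-0.71). *HES1* was not called in 5-FU at -0.61 (adjusted p = 0.0977, edgeR), in TQ at -0.42 or in Combi at 0.33 (95% interval -0.19 to 0.85). Its value in TQ turned to 0.06 after TMM normalization. In SARB a rise of the receptor *NOTCH1* stood beside a fall of *HES1* on the housekeeping scale.

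*MAML2*, a Mastermind coactivator of the receptor complex, was lower in TQ and SARB. It had 38.0, 43.8 and 85.7 scaled counts in control, 9.79, 15.4 and 18.8 in TQ, 23.2, 33.3 and 33.4 in 5-FU, 47.7, 35.8 and 35.3 in Combi, and 26.0, 29.7 and 22.1 in SARB. The TQ samples were below all others, the 5-FU and SARB samples were below all controls, and control replicate 3 stood above every other sample. The log2 fold change of *MAML2* was -1.88 in TQ (standard error 0.38, adjusted p = 0.00107, edgeR), a 3.68-fold fall, and -1.12 in SARB (standard error 0.35, adjusted p = 0.0152, edgeR). *MAML2* in TQ rested on 4 to 25 raw counts and was lost when counts under 20 were set to 20 (-0.88) and with cartridge as a block (-1.33). The call in SARB was lost without control replicate 3 (-0.68) or SARB replicate 3 (-1.01), after TMM normalization (-0.75), in DESeq2 (-0.74), in limma (-1.11) and with cartridge as a block (-0.57). *MAML2* in 5-FU, at -0.90, was called without control replicate 1 (-1.11) and after low-count genes were left out (-0.90).

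*LFNG* encodes the Fringe glycosyltransferase that modifies Notch receptors and alters their choice of ligand. It had 20.8 to 45.4 scaled counts in control and 12.3 to 41.6 in the treated samples, with raw counts of 11 to 79. All 4 treatment groups overlapped with control, and *LFNG* was called in none of the comparisons. Its 95% intervals were wide, from -1.52 to 0.37 in TQ and from -0.57 to 1.15 in Combi.

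*NUMBL*, a relative of the Notch antagonist NUMB, had 86.5 to 104 scaled counts in control and 102, 175 and 152 in Combi. Combi replicate 1, the only Combi sample on a cartridge with controls, lay within the control range. The log2 fold change of *NUMBL* in Combi, 0.58 (adjusted p = 0.0244, edgeR), missed the fold threshold of 1.5 narrowly. It was called after TMM normalization (0.69), in DESeq2 (0.62), without Combi replicate 1 (0.75) and without control replicate 3 (0.64), and it was 0.00 after rounding with cartridge as a block. In SARB *NUMBL* had 111 to 130 scaled counts, above all controls, at 0.35 (adjusted p = 0.164, edgeR), and was called after TMM normalization (0.71).

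**Figure D2:**
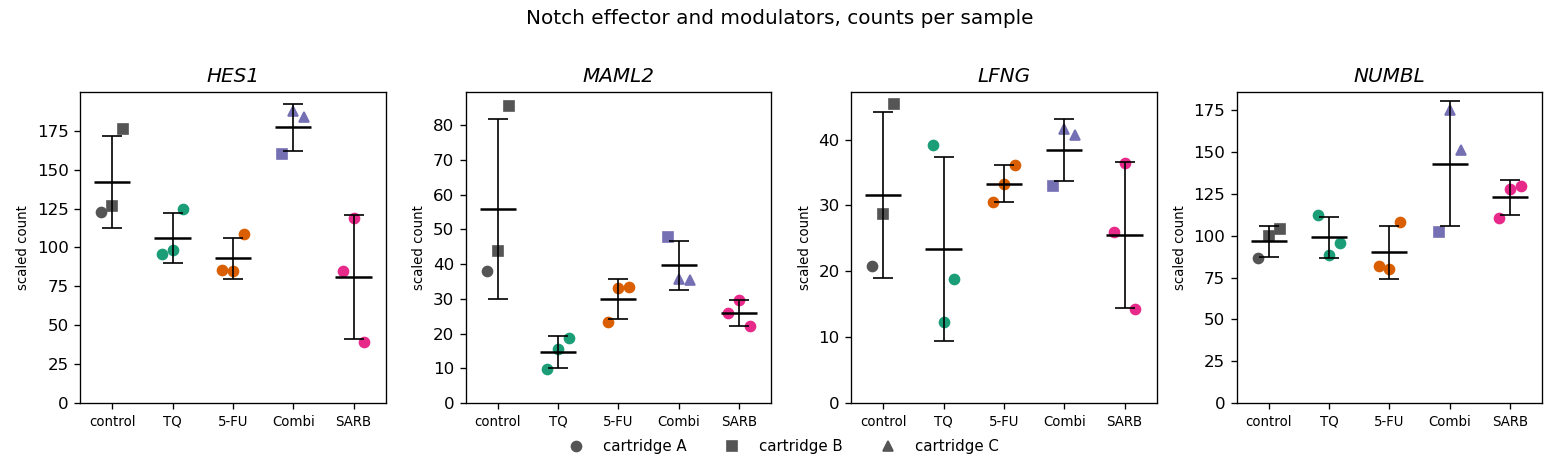
Scaled counts of *HES1*, *MAML2*, *LFNG* and *NUMBL* (vertical axes, starting at 0) in the 5 groups, with 1 point per sample, the marker shape giving the cartridge, and bars giving mean ± SD (n = 3). SARB replicate 3 has the lowest *HES1* value of all samples, at 39.4, and control replicate 3 the highest *MAML2* value, at 85.7.

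Counted over the 10 members, Combi had the largest number of calls. In Combi 6 members were called higher (*NOTCH1*, *NOTCH2*, *NOTCH3*, *JAG1*, *JAG2* and *DLL1*) and 0 lower by edgeR, with 0 on the lower side at an unadjusted p under 0.05 and 0 in DESeq2. Of all 730 genes 13.6% were called higher and 6.58% lower there, and 1 member (*MAML2*, -0.51) had a negative log2 fold change. The members' median was 0.68 against -0.10 for all genes. With cartridge as a block 3 members (*NOTCH1*, *NOTCH3* and *JAG1*) were called in Combi, and the count over all 730 genes went from 147 to 96. In 5-FU 2 members were called higher, *NOTCH1* and *JAG1*, and 0 lower by edgeR, beside 10.1% of all genes in each direction. On the lower side 2 members (*HES1* and *MAML2*) had an unadjusted p under 0.05, and DESeq2 called 0. Without control replicate 2 or without 5-FU replicate 3, *NOTCH1* was the 1 member called in 5-FU.

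In TQ 0 members were called higher by edgeR and 2 lower, *NOTCH3* and *MAML2*, beside 3.42% and 21.6% of all genes, and the members' median of -0.43 was close to the median of -0.47 of the whole panel. On the higher side in TQ 1 member, *NOTCH1*, had an unadjusted p under 0.05, and DESeq2 called 2. In SARB 1 member was called higher, *NOTCH1*, beside 8.63% of all genes, and 2 were called lower, *HES1* and *MAML2*, beside 20% of all genes. The members' median in SARB was 0.20 against -0.41 for the panel. Without SARB replicate 3 or without control replicate 3, *NOTCH1* was the 1 member called in SARB. These 4 comparisons share the control samples and are given side by side for that reason.

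TMM normalization moved the balance of calls toward higher genes. In TQ it gave 1 member higher (*NOTCH1*) and 2 lower (*NOTCH3*, *MAML2*), beside 10.8% and 6.03% of all genes. In 5-FU it gave 4 higher (*NOTCH1*, *NOTCH3*, *JAG1* and *DLL1*) and 0 lower by edgeR (1 at an unadjusted p under 0.05), beside 14.2% and 5.62%. In Combi 7 were higher, the 6 named above and *NUMBL*, and 0 lower (0 at an unadjusted p under 0.05), beside 16.3% and 5.75%. In SARB 4 were higher (*NOTCH1*, *JAG2*, *DLL1* and *NUMBL*) and 0 lower (2 at an unadjusted p under 0.05), beside 16.4% and 9.32%. *NOTCH1* in 5-FU, Combi and SARB, *NOTCH3* in TQ and Combi, *JAG1* in 5-FU and Combi, *MAML2* in TQ, and *NOTCH2*, *JAG2* and *DLL1* in Combi were called in the same direction under both scalings.

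**Figure D3:**
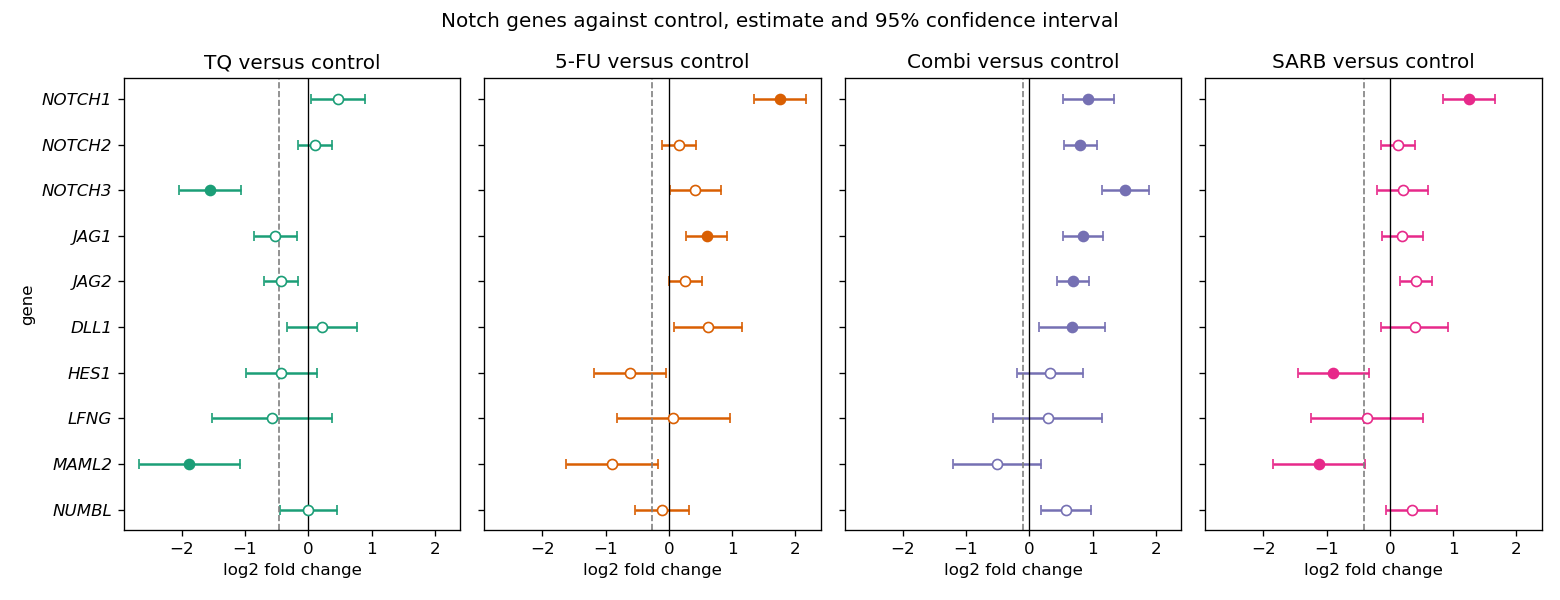
Log2 fold change of the 10 members against control (horizontal axes, one panel per treatment), with points giving the edgeR estimate, bars the 95% confidence interval, and filled points the called genes. The dashed line marks the median of all 730 genes, and 6 filled points lie to the right of 0 in Combi.

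SARB and Combi, compared at their shared dose of 35 µM, differed in 4 members, each lower in SARB. Under housekeeping scaling the median log2 difference, SARB minus Combi, was -0.32 over all 730 genes and -0.63 over the 10 members. *NOTCH3* was at 103 ± 14.4 scaled counts (SD, n = 3) in SARB and 254 ± 39.2 in Combi, and *HES1* at 81.0 ± 39.8 and 177 ± 14.9. *NOTCH2* was at 371 ± 36.2 and 590.04 ± 76.0, and *JAG1* at 286 ± 44.9 and 447 ± 31.2. In none of these 4 genes did a SARB sample reach the lowest Combi sample. The calls came from the same samples, so this separation is not separate evidence. The SARB samples of *JAG2* and *MAML2*, which were not called, also lay below all Combi samples. How often such separation occurred among all genes was not tested. The difference, SARB minus Combi, was -1.32 on the log2 scale for *NOTCH3* (standard error 0.17, adjusted p = 3.10e-05, edgeR), -1.22 for *HES1* (0.25, adjusted p = 0.00221), -0.68 for *NOTCH2* (0.12, adjusted p = 0.000593) and -0.66 for *JAG1* (0.14, adjusted p = 0.00323). These 4 members lower and 0 higher by edgeR stood beside 11.2% and 0.959% of all genes, and 0 members had an unadjusted p under 0.05 on the higher side, where DESeq2 called 1.

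After TMM normalization *NOTCH3* (-1.06) and *HES1* (-0.996) were still called, beside 7.4% of all genes lower and 5.34% higher, while *NOTCH2* (-0.42) and *JAG1* (-0.41) were not. Without SARB replicate 3, *HES1* was still called at -0.82 and *JAG1* was lost (-0.52). No cartridge held both treatments, and with cartridge as a block, which links them through the controls and Combi replicate 1 alone, 0 of the 10 members were called by edgeR and 1 had an unadjusted p under 0.05, with *NOTCH3* at -0.90 and *HES1* at -0.79. For *NOTCH1* the difference was 0.32 (95% interval -0.04 to 0.68), which DESeq2 called (0.63), and with the block it was -0.26. For *JAG2* it was -0.28 (95% interval -0.53 to -0.03) and for *DLL1* -0.28 (-0.76 to 0.19). *MAML2* at -0.62, *LFNG* at -0.65 and *NUMBL* at -0.24 were not called.

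**Figure D4:**
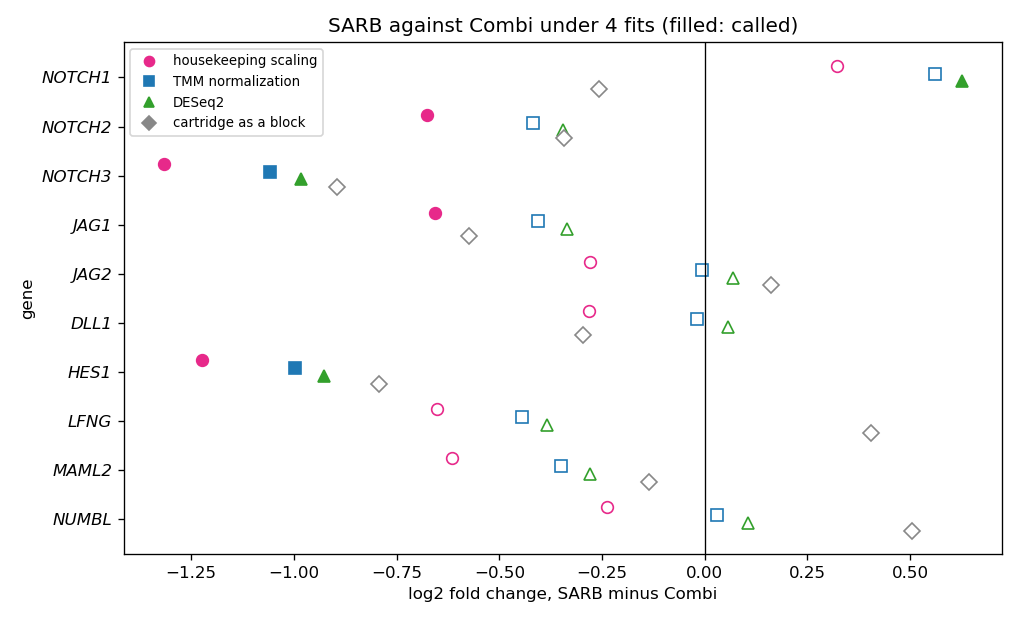
Log2 fold change of SARB minus Combi for the 10 members (horizontal axis) under housekeeping scaling, TMM normalization, DESeq2 and edgeR with cartridge as a block, with filled markers for called genes. *NOTCH3* runs from -1.32 to -0.90 and *HES1* from -1.22 to -0.79 over the 4 fits, while *NOTCH1*, *JAG2*, *DLL1*, *LFNG* and *NUMBL* have values on both sides of 0.

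The order of the group means differed between members. For *NOTCH1* it ran from 5-FU through SARB, Combi and TQ to control, with overlapping samples only between SARB and Combi among neighbours in that order. For *NOTCH3* and *JAG1* it ran from Combi through 5-FU, SARB and control to TQ, with Combi apart from 5-FU and control apart from TQ, and SARB not apart from control. For *JAG2* the order was Combi, SARB, 5-FU, control and TQ, and SARB and 5-FU were the neighbours that overlapped. For *NOTCH2* Combi alone stood apart from its neighbour. For *HES1*, *LFNG*, *DLL1* and *NUMBL* all neighbouring groups overlapped, and for *MAML2*, with control on top, Combi was apart from 5-FU and SARB from TQ.

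A list of 55 other Notch pathway genes was written from general knowledge, and 16 of them were on the panel. In TQ 5 were called lower, *HES5*, *DTX1*, *CREBBP*, *APH1B* and *HDAC1*, and 0 higher by edgeR (1 at an unadjusted p under 0.05, and 1 called by DESeq2), beside 21.6% of all genes lower and 3.42% higher. Their median was -0.57 against -0.47 for all genes. *CREBBP*, an acetyltransferase coactivator, fell from 67.9 ± 17.0 to 25.1 ± 12.2 scaled counts (SD, n = 3), and *APH1B*, a subunit of the γ-secretase that releases the receptor's intracellular part, from 39.8 ± 0.517 to 16.0 ± 5.57, with 1 of 3 control samples of *APH1B* above the negative-probe background. *HES5*, a further target of the HES family, and *DTX1*, a Deltex ubiquitin ligase, averaged 6 and 8.33 raw counts in TQ. In control and in TQ alike, 0 of 3 samples for *HES5* and 2 of 3 for *DTX1* were above the background of the negative probes. The negative probes averaged 6.75, 12 and 12.25 raw counts in control replicates 1 to 3 and 3.125, 5.75 and 4.25 in those of TQ. No background was subtracted before the test, so the level of *HES5* is not known in either group beyond being low. The negative probes were lower in TQ than in control, and how far this bears on the falls of *HES5*, *DTX1* and *APH1B* was not tested. After TMM normalization 0 of the 16 were called lower in TQ by edgeR (4 at an unadjusted p under 0.05) and 1 was called higher, and DESeq2 also called 0 lower. Without TQ replicate 2, 1 of the 16 was called in TQ, without control replicate 3, 2 were, and without control replicate 2 or TQ replicate 1, 3 were.

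*KAT2B*, an acetyltransferase coactivator of the receptor complex, was called higher in 5-FU (1.37), Combi (1.05) and SARB (0.96). It rose from 38.2 ± 11.5 scaled counts in control to 97.9 ± 3.50, 77.5 ± 17.1 and 73.5 ± 2.17 (SD, n = 3), and 1 of its 3 control samples exceeded the negative-probe background. *FBXW7*, the ubiquitin ligase subunit that marks the active receptor for degradation, rose from 133 ± 16.0 to 234 ± 40.8 in 5-FU (0.82) and 218 ± 66.9 in Combi (0.69). *DLL4*, a Delta-type ligand, rose in Combi (1.38 against control, adjusted p = 0.0152, edgeR), with 52.3, 60.6 and 58.1 scaled counts against 10.4, 15.1 and 40.3. None of the control samples of *DLL4* exceeded the negative-probe background. With cartridge as a block *KAT2B* was no longer called in SARB, where 0 of the 16 were called higher by edgeR (1 at an unadjusted p under 0.05). In that fit 1 of the 16 was called higher in 5-FU and 1 in Combi.

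*HDAC2*, a histone deacetylase found in the corepressor complexes that occupy RBPJ sites without Notch, fell from 3658 ± 303 scaled counts in control to 2338 ± 161 in 5-FU (-0.65), 2222 ± 10.2 in Combi (-0.72) and 2151 ± 72.3 in SARB (-0.77). In TQ *HDAC2* was at 2570 ± 89.0, below all controls, and fell short of the fold threshold (-0.51, adjusted p = 0.000615, edgeR). The median of all genes in TQ was -0.47. The call of *HDAC2* in 5-FU was lost after TMM normalization, in DESeq2 and with cartridge as a block. In these 3 fits 0 of the 16 were called lower in 5-FU (2, 2 and 3 at an unadjusted p under 0.05). *HDAC1* fell from 2706 ± 301 to 1801 ± 71.8 in TQ (-0.59) and 1669 ± 91.1 in Combi (-0.70). *DTX1* was also called lower in SARB (-1.66), where 0 of 3 samples exceeded the negative-probe background, so its level there is not known beyond being low. In 5-FU 2 of the 16 were called higher and 1 lower, beside 10.1% of all genes in each direction. In Combi 3 were higher and 2 lower, beside 13.6% and 6.58%, and in SARB 1 was higher and 2 lower, beside 8.63% and 20%. Without control replicate 1 the count in Combi was 3. The count in SARB was 6 without SARB replicate 2 and 1 without control replicate 2. Between SARB and Combi *DLL4* was the 1 gene called (-1.29, adjusted p = 0.0282, edgeR), a call lost without Combi replicate 2, Combi replicate 3 or SARB replicate 3.

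The genes with the response most like that of a member were found as those with the smallest root mean square difference over the 4 log2 fold changes against control, among 334 genes averaging at least 100 scaled counts. For *NOTCH1* these were *PML* (0.21), *LAMA5* (0.22) and *CIC* (0.28). For *JAG1* they were *BAIAP3* (0.12), *DUSP4* (0.16) and *EGFR* (0.17). For *HES1* they were *KLF4* (0.11), *ARID2* (0.18) and *FUT8* (0.23), and *KLF4* stood at -0.37 with TQ, -0.66 with 5-FU, 0.28 with Combi and -0.69 with SARB. All these fold changes share the control samples.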

How the data were processed

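RNA from HCT116 cells (50 ng per sample) was counted with the nCounter PanCancer Pathways Panel in 15 samples, 3 per group. The authors deposited raw counts per probe, and a table of normalized signal values made in nSolver. Those deposited signal values were reproduced within 1% for 100% of values in every sample by subtracting a background and scaling by 1 factor per sample. A deposited table of fold changes and p-values between groups was not used. Unmapped sample columns numbered 0.

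The raw counts were scaled to the geometric mean of the 40 housekeeping genes and tested over all 730 endogenous genes, with 1 edgeR quasi-likelihood model (edgeR 4.0.16, R 4.3.3) holding the 5 groups, followed by Benjamini-Hochberg adjustment. All 10 members were tested, with no filter on low counts. A value was above background where its raw count exceeded the mean plus 2 SD of the 8 negative probes (6.23 to 26.4 counts). By that rule *DLL1*, *LFNG* and *MAML2* were above background in 13 of 15 samples and the other 7 members in all 15. Endogenous counts per sample summed to 220040-258006 (control), 135017-513114 (TQ), 238738-261686 (5-FU), 287333-607782 (Combi) and 226357-568343 (SARB), and precision at a given level follows this depth.

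Alternatives were TMM normalization, DESeq2 1.42.0, a filter on low counts, counts under 20 set to 20, limma 3.58.1 on log2 of the normalized values plus 1, cartridge or replicate number as a block, and leaving out each replicate. The edgeR script was run on simulated counts that held no cartridge effect, so that run cannot show how cartridge bears on these results. The genes named were all 10 members, every other Notch gene called in at least 1 comparison, and the 3 genes most like each of *NOTCH1*, *JAG1* and *HES1*. Members and lists were chosen with earlier results of these data known.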

Additional observations from a re-analysis of the deposited data

How the results depend on the processing

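None of the values of members that changed sign under an alternative was called under housekeeping scaling with edgeR. After TMM normalization the log2 fold changes against control were 0.039 for *JAG2* and 0.057 for *HES1* in TQ and 0.083 for *NUMBL* in 5-FU, and SARB minus Combi was 0.030 for *NUMBL*. In DESeq2 these were 0.075, 0.091, 0.092 and 0.11, and SARB minus Combi was 0.068 for *JAG2* and 0.057 for *DLL1*. With cartridge as a block *LFNG* was at 0.025 in TQ, -0.16 in Combi and 0.24 in SARB and *NUMBL* at 0.054 in 5-FU, while SARB minus Combi was -0.26 for *NOTCH1*, 0.16 for *JAG2*, 0.40 for *LFNG* and 0.51 for *NUMBL*. *LFNG* was at -0.14 in 5-FU with counts under 20 set to 20 and at 0.070 in SARB with limma. Leaving out 1 replicate moved *NUMBL* in TQ between -0.082 and 0.092 and *LFNG* in 5-FU between -0.15 and 0.42. The cause of these changes was not tested.

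Counts over all 730 genes moved too. In TQ they were 183, then 122 in DESeq2, 92 with counts under 20 set to 20 and 39 with cartridge as a block. In 5-FU they were 148, then 145 after TMM normalization and 136 in DESeq2. With the cartridge block they went from 147 to 96 in Combi and from 89 to 1 between SARB and Combi, where TMM normalization gave 93. Without 1 replicate the counts over all 730 genes were 86 to 219 in TQ, 128 to 180 in 5-FU and 128 to 169 in Combi. They were 154 to 308 in SARB and 49 to 156 between SARB and Combi. The count of members called in TQ was 2, and it was 4 in DESeq2, 1 with counts under 20 set to 20, 1 with cartridge as a block and 2 to 3 without 1 replicate. In 5-FU it was 2, then 4 after TMM normalization, 4 in DESeq2 and 1 to 3 without 1 replicate. In Combi it was 6, then 3 with the cartridge block and 5 to 7 without 1 replicate. In SARB it was 3, and 1 to 3 without 1 replicate, but its split changed from 1 higher and 2 lower to 4 higher after TMM normalization, 3 higher in DESeq2 and 2 higher with the cartridge block, with 0 lower in these 3 (2, 2 and 0 lower at an unadjusted p under 0.05). Between SARB and Combi it was 4, then 2 after TMM normalization, 0 with the cartridge block in edgeR (1 at an unadjusted p under 0.05) and 3 to 4 without 1 replicate. Of the 16 other Notch genes, 5 were called in TQ, then 1 after TMM normalization, 1 in DESeq2, 3 after the filter on low counts, 1 with counts under 20 set to 20, 1 with the cartridge block and 1 to 5 without 1 replicate. In 5-FU 3 were called, and 1 with the cartridge block. In Combi 5 were called, then 2 with that block and 3 to 5 without 1 replicate. In SARB 3 were called, then 1 with that block and 1 to 6 without 1 replicate. Between SARB and Combi 1 was called, then 2 after TMM normalization, 2 in DESeq2, 0 in limma, 0 with the cartridge block (0 at an unadjusted p under 0.05) and 0 to 2 without 1 replicate.

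No pairing of samples by replicate number was seen. Of 15 same-numbered pairs, 3 had deviations correlated above 0.1 (range -0.29 to 0.28), and 8 of 30 best matches shared a number. This check cannot exclude that same-numbered samples were handled together. With the replicate block *DLL1* in Combi (0.69) was no longer called, *NUMBL* in TQ was at -0.0031, and 0 of the other Notch genes were called between SARB and Combi in edgeR (3 at an unadjusted p under 0.05). No other call of a member changed with it. The raw counts of *DLL1*, *LFNG* and *MAML2* lay near the background of the negative probes in some samples, which limits what their values show.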
